A study of Mus musculus with 11 samples.

Results

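Open chromatin near 48 genes of the BMP and TGF-beta pathways was examined in lung epithelium of fetal mice at E17.5, in 5 Prdm3/16 knockout libraries and 6 control libraries. ATAC-seq marks open DNA by the cuts of a transposase, and it had been run on nuclei of 50000 cells captured on microbeads through EpCAM, an adhesion protein of epithelium. An open region was counted for a gene when that gene's body was the nearest protein-coding one, at most 100 kb away. This rule gave the 48 genes 546 regions, of which 444 had a peak in at least 3 of the 11 libraries and were compared, out of 83262 regions compared over the genome. All 48 genes had at least 1 compared region, from 1 for Grem1 to 23 for Ltbp1, with a median of 8. Nearness does not show that a region acts on the gene, and longer genes had more regions (Spearman's rho 0.467 across the 48 genes).

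In the knockout, Prdm3 (Mecom) and Prdm16 were both removed by Cre excision of floxed alleles, under the Shh-Cre allele, which recombines in the lung epithelium. Both genes encode zinc finger proteins that act on transcription and chromatin. Per the labels, ShhCre+ fathers carried Prdm3fl/fl and Prdm16fl/wt and mothers carried Prdm3fl/fl and Prdm16fl/fl. Every fetus of that cross, control or knockout, therefore carried floxed Prdm3 alleles on both chromosomes and at least 1 floxed Prdm16 allele. The control genotype is not given further in the sources used here, nor whether the libraries are from separate animals, so the p-values measure the spread between these libraries, which may be technical.

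BMPs and TGF-betas are secreted ligands that bring type I and type II receptor kinases together on the cell surface. The active receptors phosphorylate SMAD proteins, which join SMAD4, enter the nucleus and bind DNA. BMP receptors use SMAD1, SMAD5 and SMAD9, while TGF-beta and activin receptors use SMAD2 and SMAD3. Latent TGF-beta is stored in the matrix by binding proteins, BMPs are held in check by secreted antagonists, and the Id genes are classical targets of BMP signalling. In the developing lung, Bmp4 is known for its expression in the tips of growing airways, and TGF-beta signalling is known to restrain branching.

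All lists of peaks were brought to the size of the smallest, 72935 peaks, by keeping those of highest −log10 p. Within a library the top peak has a rank score of 1, scores descend in even steps to near 0, and a region without a peak has 0. A rank score therefore compares a region with the other peaks of its own library and is not a read count. Differences are knockout minus control, and a region is called where the limma adjusted p (Benjamini-Hochberg over all 83262 regions) is below 0.05. In this bulk material, fewer cells with an open region and less opening per cell cannot be told apart.

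Start sites are shown first because they tie a region to its gene most directly. RefSeq held a promoter entry for 34 of the 48 genes, and a compared region lay over it for 27, in 29 regions. Of these 29, 24 had a peak in all 11 libraries, and 2 were called lower (6.90%, against 7.17% of regions over promoters of all protein-coding genes). Higher calls numbered 1 (3.45%, against 7.43%), so the number called at these 29 regions is near or below that over the genome. Genes without such a region are not covered, and the wider gene-end measure below gave 17.1% lower, against 8.94%. The called regions lay over an inner promoter entry of Bmpr1b, a type I BMP receptor, and over 2 further promoters. These were of Tgfbr2, the type II TGF-beta receptor, and Id3, a helix-loop-helix inhibitor induced by BMP. The 250 bases before each of the 3 start sites are printed with those of Id2, a relative of Id3 whose start site was open in all 11 libraries and not called. Coordinates are GRCm38.p6, the assembly of mm10. Capitals mark CAGAC or GTCTG, the half-site bound by SMAD3 and SMAD4, and GGCGCC, a GC-rich element bound by SMAD1 and SMAD5, on either strand. The 2 kinds of motif did not overlap in these windows.
Bmpr1b, chr3:141982265-141982514, minus strand: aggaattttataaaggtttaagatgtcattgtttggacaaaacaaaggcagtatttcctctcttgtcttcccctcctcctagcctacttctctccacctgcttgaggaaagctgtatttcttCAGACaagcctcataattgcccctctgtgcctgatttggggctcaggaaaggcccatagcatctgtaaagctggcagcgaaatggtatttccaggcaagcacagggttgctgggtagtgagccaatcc
Tgfbr2, chr9:116175364-116175613, minus strand: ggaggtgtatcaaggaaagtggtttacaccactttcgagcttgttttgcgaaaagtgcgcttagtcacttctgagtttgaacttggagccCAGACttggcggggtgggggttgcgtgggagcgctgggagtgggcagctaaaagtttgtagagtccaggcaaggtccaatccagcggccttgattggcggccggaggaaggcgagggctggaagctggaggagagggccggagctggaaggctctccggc
Id3, chr4:136143572-136143821, plus strand: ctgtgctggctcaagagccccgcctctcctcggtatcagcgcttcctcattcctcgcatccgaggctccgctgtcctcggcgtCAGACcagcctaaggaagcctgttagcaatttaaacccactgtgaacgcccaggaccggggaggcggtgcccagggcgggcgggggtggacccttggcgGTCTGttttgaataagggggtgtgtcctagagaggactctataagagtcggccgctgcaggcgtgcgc
Id2, chr12:25096093-25096342, minus strand: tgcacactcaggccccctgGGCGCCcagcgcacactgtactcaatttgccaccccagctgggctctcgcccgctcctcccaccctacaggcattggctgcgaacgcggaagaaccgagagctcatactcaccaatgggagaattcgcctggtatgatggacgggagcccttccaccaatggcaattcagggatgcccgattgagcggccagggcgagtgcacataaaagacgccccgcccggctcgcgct

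The half-site occurred 1 time before Bmpr1b, 1 time before Tgfbr2, 2 times before Id3 and 0 times before Id2. GGCGCC occurred 1 time before Id2 and 0 times before the other 3 genes. Of 32851 promoter entries in the table, 42.2% held the half-site and 9.59% held GGCGCC. A match is a string of letters and does not show binding.

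The Bmpr1b promoter region (chr3:141982010-141982409) scored 0.486, 0.579, 0.383, 0.675 and 0.329 in knockout replicates 1 to 5, against a lowest of 0.694, a median of 0.755 and a highest of 0.866 in the 6 controls. All knockouts lay below all controls, with a difference of −0.272 ± 0.0575 (SE, limma adjusted p = 0.00206). This entry lies inside the gene body. The gene is on the minus strand, so its higher-coordinate end is its outermost start. The region at that end (chr3:142169103-142169502) averaged 0.937 ± 0.0167 in knockouts and 0.957 ± 0.0100 in controls (SD, n = 5 and 6) and was not called (limma adjusted p = 0.0925).

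The Id3 promoter region (chr4:136143508-136143907) scored 0.822, 0.882, 0.868, 0.839 and 0.830 in knockouts, against 0.690 to 0.773 with a median of 0.746 in controls. All knockouts lay above all controls, with a difference of 0.108 ± 0.0195 (SE, limma adjusted p = 0.000591). The Id2 start site, printed for comparison, averaged 0.939 ± 0.0155 in knockouts and 0.932 ± 0.0135 in controls (SD, n = 5 and 6; limma adjusted p = 0.606). The Tgfbr2 promoter region (chr9:116175160-116175559) scored 0.603, 0.711, 0.699, 0.772 and 0.750 in knockouts, against 0.748 to 0.847 with a median of 0.799 in controls. These groups overlapped, and the difference of −0.0904 ± 0.0296 (SE, limma adjusted p = 0.0279) missed the threshold when knockout replicate 1 or 3, or control replicate 1, 3 or 6, was left out, with adjusted p from 0.0515 to 0.0617, and with scores centred in each library, with an adjusted p of 0.0892.

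The other 26 promoter regions differed by at most 0.131 in size and were not called. They ranged from Tgfbr1, the type I TGF-beta receptor, with 0.993 in knockouts and 0.990 in controls, to Tgif1, a homeodomain co-repressor, with 0.100 in knockouts and 0.0622 in controls. The region over the Acvr1 start site is nearest to the body of Upp2 and is shown here without being counted among the 444. A wider measure, the best region within 1 kb of either end of each gene, existed for 41 genes and had a peak in all 11 libraries for 36. Of these 41, 7 were called lower (17.1%, against 8.94% of the best gene-end regions of all protein-coding genes) and 4 higher (9.76%, against 7.77%). The lower ones belonged to Bmp3, Bmp7, Tgfbr2, Tgfbr3, Ltbp3, Smad4 and Tgif1, and the higher ones to Smurf1, Skil, Id3 and Bmp1.

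**Figure D1:**
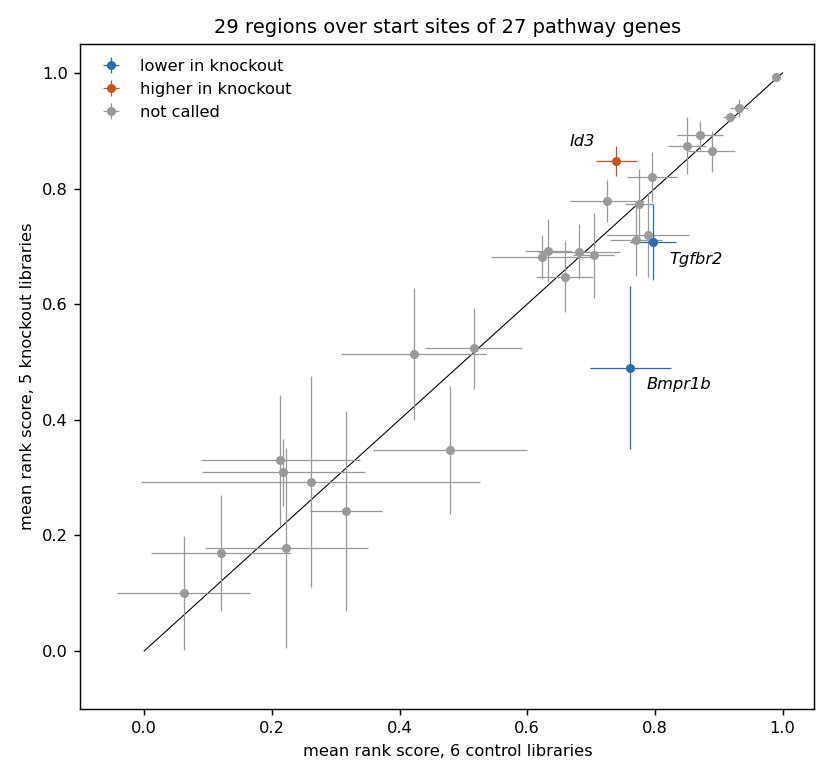
Mean rank score in 5 knockout libraries (vertical axis) against 6 control libraries (horizontal axis) for 29 regions over start sites of 27 pathway genes. Bars are SD and the line marks equality; Bmpr1b and Tgfbr2 lie below it and Id3 above it as the 3 called regions, and 26 grey points were not called.

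Over the whole pathway, 119 of 444 regions were called lower (26.8%, against 20.8% of all regions) and 64 higher (14.4%, against 17.0%), and 261 were not called. Over the genome 37.8% of regions were called in either direction. Lower calls were thus 65% of the called regions near these genes and 55.1% of those over the genome. Scaling moved this split: lower calls were 77.7% near these genes and 67.4% genome-wide in the lists as deposited, 76.4% and 67% among peaks with a −log10 q of at least 5, and 57.9% and 45.9% with scores centred in each library. The median difference was −0.0203 near these genes and −0.0208 over all regions, which is nearly the same. The mean score near these genes was 0.372 in knockouts and 0.419 in controls, and over all regions 0.410 and 0.429. Called differences had a median size of 0.291 both near these genes and over all regions.

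By presence in the shortened lists, 17 regions had a peak in every control and in no knockout (2.94% of all regions did). In 12 regions a peak was in every knockout and in no control (3.89%). Throughout the main comparison, no peak means none among the 72935 peaks kept for that library, so presence still depends on rank. Fisher's exact test over numbers of libraries, adjusted over all 24732 testable regions, called 35 of 123 testable regions for more controls (23.9% of all) and 27 for more knockouts (23.3%). In the lists as deposited it called 41 and 21 regions near these genes, a setting for which no share over all regions is at hand. Scores of the groups did not overlap in 72 regions with knockouts lower (12.1% of all) and 39 with knockouts higher (10.9%). A peak was present in all 11 libraries in 200 regions, of which 49 were called lower and 23 higher (17.9% and 12.7% of all such regions). Of the 444 regions, 42 shared a peak with a neighbouring window.

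By position, the shares were as follows. Within 1 kb of a gene end, 10 of 77 regions were called lower (13.0%, against 9.62% of all such regions) and 5 higher (6.49%, against 6.58%). Inside gene bodies, 62 of 197 were called lower (31.5%, against 24.9%) and 28 higher (14.2%, against 19.1%). Between genes, 47 of 170 were called lower (27.6%, against 23.0%) and 31 higher (18.2%, against 19.5%). The gene table used here has no exons, so exonic and intronic regions were not separated.

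Most genes with called regions had calls of both signs. Regions of 26 genes were called in both directions, 12 genes had lower regions only, 6 had higher regions only, and 4 (Tgfb1, Tgfb3, Grem1 and Inhba) had none called. No matching counts over all genes are at hand. Since 37.8% of all regions were called, calls of both signs are not read as a trait of these genes. The 8 role groups are given in turn. Values per library are given for the regions that the naming rule takes, which are the 8 greatest falls, the 8 greatest rises, the region of smallest p in each role and the called promoters. Any further region was chosen after its values had been seen, as an example.

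**Figure D2:**
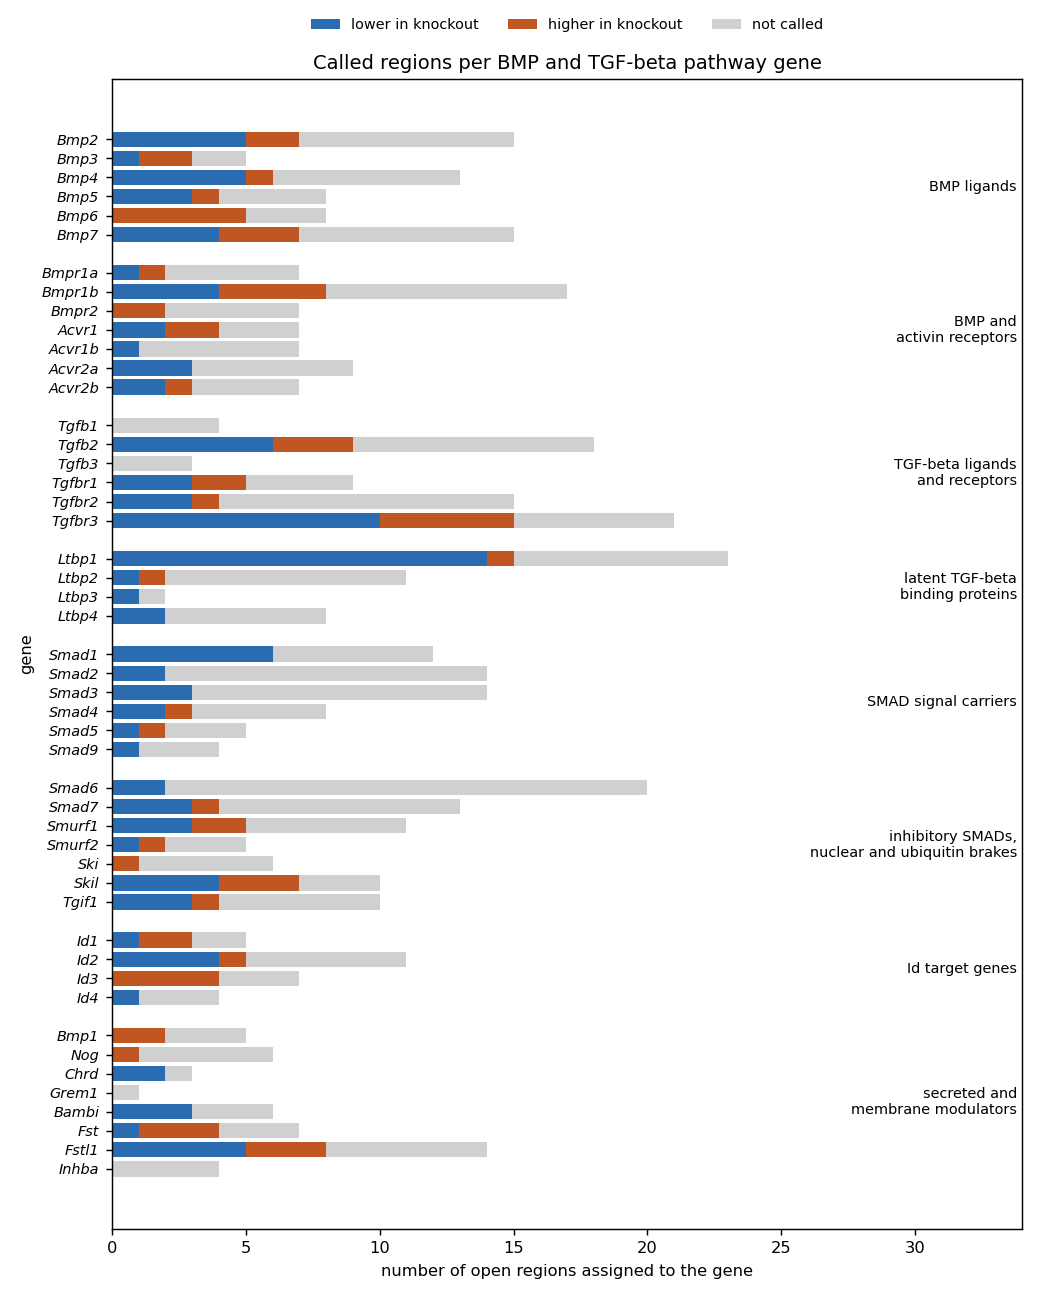
Number of compared regions assigned to each of the 48 genes (horizontal axis), grouped by role, with regions lower in knockout, higher in knockout and not called stacked. Ltbp1 had the most regions, 23, with 14 lower and 1 higher, and Bmp6 had 0 lower and 5 higher of 8.

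The 6 BMP ligands had 64 regions. Of these, 18 were called lower (28.1%, against 20.8% of all regions) and 14 higher (21.9%, against 17.0%). Bmp2 and Bmp4, closely related ligands, had more lower than higher regions, with 5 and 2 of 15 for Bmp2 and 5 and 1 of 13 for Bmp4. Bmp5 had 3 lower and 1 higher of 8, Bmp7 had 4 and 3 of 15, and Bmp3, a ligand that antagonises other BMPs, had 1 and 2 of 5. Bmp6 had calls of the other sign alone, with 0 lower and 5 higher of 8.

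The strongest fall near Bmp4 was a region 19194 bp from the gene (chr14:46364131-46364530), which scored 0.277, 0.159, 0.245, 0.185 and 0 in knockouts, against 0.759 to 0.832 with a median of 0.782 in controls. The groups were far apart, with a difference of −0.613 ± 0.0501 (SE, limma adjusted p = 5.33e-07). A further region 25590 bp from Bmp4 (chr14:46357735-46358134) had no peak in any knockout, against 0.465 to 0.642 with a median of 0.537 in controls, and differed by −0.548 ± 0.0508 (SE, limma adjusted p = 1.60e-06).

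Bmp2 showed changes of both signs at a distance. A region 43668 bp from it (chr2:133606364-133606763) scored 0.810, 0.736, 0.825, 0.793 and 0.695 in knockouts, against a median of 0 and a highest of 0.406 in controls, with a difference of 0.704 ± 0.0765 (SE, limma adjusted p = 7.02e-06). Among the controls a peak was present in replicate 1 alone. A region 91133 bp away (chr2:133460826-133461225) scored 0.863, 0.873, 0.830, 0.861 and 0.851 in knockouts, against 0 to 0.382 with a median of 0.325 in controls, with a difference of 0.576 ± 0.0610 (SE, limma adjusted p = 5.55e-06). Both regions were higher in every knockout than in any control. In the opposite direction, a region closer to Bmp2 (chr2:133564541-133564940) had no peak in any knockout, against 0.254 to 0.643 with a median of 0.490 in controls (limma adjusted p = 0.000109).

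Bmp7, a ligand also known from kidney development, had its strongest fall inside the gene body (chr2:172890102-172890501). That region scored 0.332, 0.203, 0, 0.197 and 0 in knockouts, against 0.653 to 0.762 with a median of 0.742 in controls, a difference of −0.576 ± 0.0633 (SE, limma adjusted p = 7.82e-06). A region at the Bmp7 gene end (chr2:172940135-172940534) scored 0.388, 0.430, 0.531, 0.458 and 0.456 in knockouts, against 0.652 to 0.743 with a median of 0.704 in controls (limma adjusted p = 8.42e-05). The groups did not overlap at either place.

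Bmp6 was the ligand with higher regions only, and leaving out any single library kept the counts at 0 lower and 5 higher. Inside its gene body, 3 regions had a peak in every knockout and in no control. They were chr13:38369808-38370207, with 0.261 to 0.528 in knockouts, chr13:38427052-38427451, with 0.424 to 0.556, and chr13:38434792-38435191, with 0.387 to 0.644, all against 0 in each control (limma adjusted p = 4.83e-05, 2.78e-06 and 4.02e-06). The region chr13:38407932-38408331 had peaks in both groups, with 0.771, 0.643, 0.625, 0.723 and 0.662 in knockouts, against 0.185 to 0.410 with a median of 0.361 in controls (limma adjusted p = 0.000109). In lists shortened to 50% of the shortest list, 2 of the 5 remaining Bmp6 regions were called higher and 0 lower. Over all regions that setting gave 19.6% higher and 21.4% lower. Ranking by fold enrichment gave 5 higher and 1 lower of 9, against 15.5% and 16.3% over all regions.

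The 7 BMP and activin receptors had 61 regions. Of these, 13 were called lower (21.3%, against 20.8% of all regions) and 10 higher (16.4%, against 17.0%). Both shares are near those over the genome. Among the type I receptors, Bmpr1b had 4 lower and 4 higher of 17, Bmpr1a 1 and 1 of 7, Acvr1 2 and 2 of 7, and the activin receptor Acvr1b 1 and 0 of 7. Among the type II receptors, Bmpr2 had 0 and 2 of 7, Acvr2a 3 and 0 of 9, and Acvr2b 2 and 1 of 7. Lower and higher calls were equal in number in the whole group with centred scores (11 and 11 of 61). They were also equal with ranking by fold enrichment (8 and 8 of 62). Over all regions, lower and higher calls were 17.2% and 20.3% with centred scores, and 16.3% and 15.5% with ranking by fold enrichment.

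The greatest fall near any of the 48 genes lay inside Bmpr1b (chr3:142138807-142139206). It scored 0, 0.155, 0, 0 and 0 in knockouts, against 0.841 to 0.901 with a median of 0.891 in controls, a difference of −0.851 ± 0.0427 (SE, limma adjusted p = 1.39e-08). A peak that ranked among the stronger ones of every control library was thus missing from 4 shortened knockout lists and weak in the list of knockout replicate 2. Elsewhere inside Bmpr1b, chr3:142022858-142023257 scored 0.526, 0.754, 0.707, 0.619 and 0.648 in knockouts, against 0 to 0.229 with a median of 0.00577 in controls, a difference of 0.579 ± 0.0656 (SE, limma adjusted p = 1.03e-05). Together with the lower inner promoter region, regions inside this gene body changed in both directions.

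The greatest rise near any of the 48 genes lay inside Acvr1, a type I receptor for BMPs (chr2:58549935-58550334). It scored 0.826, 0.882, 0.797, 0.865 and 0.835 in knockouts, against 0 to 0.137 with a median of 0.0417 in controls, a difference of 0.782 ± 0.0489 (SE, limma adjusted p = 5.48e-08). Every knockout was above every control. In Acvr2a, which binds activins and BMPs, the region chr2:48842095-48842494 moved the other way, with 0.437, 0.283, 0.437, 0.501 and 0.376 in knockouts, against 0.761 to 0.874 with a median of 0.816 in controls (limma adjusted p = 2.86e-06).

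**Figure D3:**
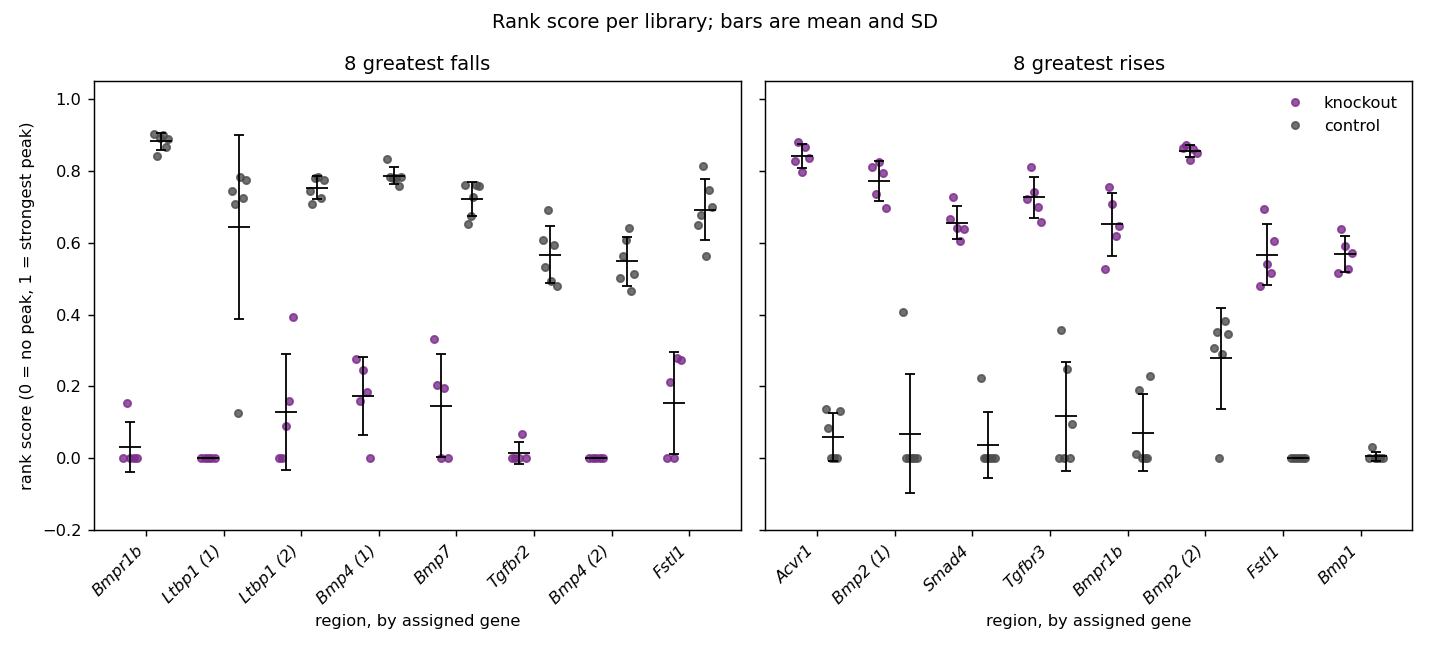
Rank score per library (vertical axis, 0 where no peak was present) at the 8 greatest called falls and the 8 greatest called rises near the pathway genes; the horizontal axis gives the gene. Points are libraries and bars are mean and SD; in each of the 16 regions the knockout points and the control points do not overlap.

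The 6 TGF-beta ligands and receptors had 70 regions. Of these, 22 were called lower (31.4%, against 20.8% of all regions) and 11 higher (15.7%, against 17.0%). All of the calls among ligands belonged to Tgfb2, with 6 lower and 3 higher of 18, while Tgfb1 and Tgfb3 had 0 called of 4 and of 3. Among receptors, Tgfbr1 had 3 lower and 2 higher of 9, Tgfbr2 3 and 1 of 15, and Tgfbr3, which encodes the co-receptor betaglycan, 10 and 5 of 21. Ranking by fold enrichment gave 14 lower and 13 higher of 69 for the group, against 16.3% and 15.5% over all regions.

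Inside Tgfb2, chr1:186669352-186669751 scored 0.733, 0.722, 0.730, 0.683 and 0.649 in knockouts, against 0 to 0.339 with a median of 0.125 in controls (difference 0.559, limma adjusted p = 2.68e-05). In the same gene body, chr1:186695286-186695685 scored 0, 0, 0, 0.454 and 0 in knockouts, against 0.414 to 0.659 with a median of 0.579 in controls (difference −0.479, limma adjusted p = 0.000572). The groups were apart in the first of these regions, whereas knockout replicate 4 reached the control range in the other. Ranking by fold enrichment turned the Tgfb2 counts to 2 lower and 4 higher of 18, against 16.3% and 15.5% over all regions.

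Tgfbr2 had a strong fall inside its gene body (chr9:116160892-116161291), with 0, 0, 0, 0.0679 and 0 in knockouts, against 0.480 to 0.691 with a median of 0.563 in controls. The difference was −0.553 ± 0.0539 (SE, limma adjusted p = 2.62e-06). Its promoter region differed by −0.0904.

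Tgfbr3 had 15 called regions, in both directions and interspersed along the gene. The region 5790 bp outside the gene body (chr5:107295219-107295618) scored 0.721, 0.811, 0.742, 0.70 and 0.657 in knockouts, against 0 to 0.356 with a median of 0.0481 in controls, a difference of 0.609 ± 0.0726 (SE, limma adjusted p = 1.62e-05). Inside the gene body, chr5:107167045-107167444 was also higher, with 0.837 to 0.886 in knockouts and 0.619 to 0.712 in controls (limma adjusted p = 4.94e-06). The region chr5:107124445-107124844 was lower, with 0.209 to 0.483 in knockouts and 0.672 to 0.786 in controls (limma adjusted p = 2.87e-05). Lower calls made up 47.6% of the Tgfbr3 regions. Of the 436 genes over the genome with at least 20 regions, 16 had a share at least that high, and the median share was 25.0%.

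The 4 genes of latent TGF-beta binding proteins had 44 regions, with a median difference of −0.165. Of these, 18 were called lower (40.9%, against 20.8% of all regions) and 2 higher (4.55%, against 17.0%). The lower calls were mostly those of Ltbp1, which tethers latent TGF-beta to the matrix, with 14 lower and 1 higher of 23. Ltbp4 had 2 and 0 of 8, Ltbp3 had 1 and 0 of 2, and Ltbp2, a microfibril protein of the same family, had 1 and 1 of 11. Leaving out knockout replicate 2 or 3 or control replicate 4 gave 1 higher call in the group in place of 2, and lower calls numbered 16 to 19 whichever library was left out.

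Lower calls were 60.9% of the Ltbp1 regions, the highest share among the 436 genes with at least 20 regions. This rank was looked up after the Ltbp1 counts had been seen. All 14 lower regions lay inside the gene body, and 5 of them had a peak in every control and in no knockout. The single higher region (chr17:75307036-75307435), with 0.950 in knockouts and 0.913 in controls on average, was no longer called when knockout replicate 2, 3 or 4 or control replicate 4 was left out. In lists shortened to 50% of the shortest list, 10 regions remained, 6 of them lower and 1 higher, against 21.4% and 19.6% over all regions.

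The region chr17:75132056-75132455, which had the smallest p of the group, scored 0.380, 0.209, 0.370, 0.226 and 0.232 in knockouts, against 0.653 to 0.806 with a median of 0.780 in controls (difference −0.473 ± 0.0472 SE, limma adjusted p = 3.23e-06). The neighbouring windows chr17:75119419-75119818 and chr17:75120041-75120440 shared a peak in controls and are not independent. The window 75119419 scored 0, 0, 0.0895, 0.158 and 0.393 in knockouts, against 0.709 to 0.784 with a median of 0.759 in controls (difference −0.625 ± 0.0662 SE, limma adjusted p = 5.64e-06). The window 75120041 had no peak in any knockout, against 0.126 to 0.784 with a median of 0.735 in controls (difference −0.644 ± 0.104 SE, limma adjusted p = 0.000236). In the lists as deposited its difference was −0.253 and missed the threshold (limma adjusted p = 0.0760).

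Ltbp1 regions without a peak in any shortened knockout list included chr17:75204067-75204466, with 0.388 to 0.571 in controls (limma adjusted p = 4.21e-06), and chr17:75125887-75126286, with 0.326 to 0.610 in controls (limma adjusted p = 1.74e-05), against 0 in each knockout. Start sites of Ltbp1 were not among the called regions. They averaged 0.514 in knockouts and 0.422 in controls at the gene end (chr17:75005300-75005699, limma adjusted p = 0.305) and 0.719 and 0.789 at an inner start (chr17:75178365-75178764, limma adjusted p = 0.157).

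**Figure D4:**
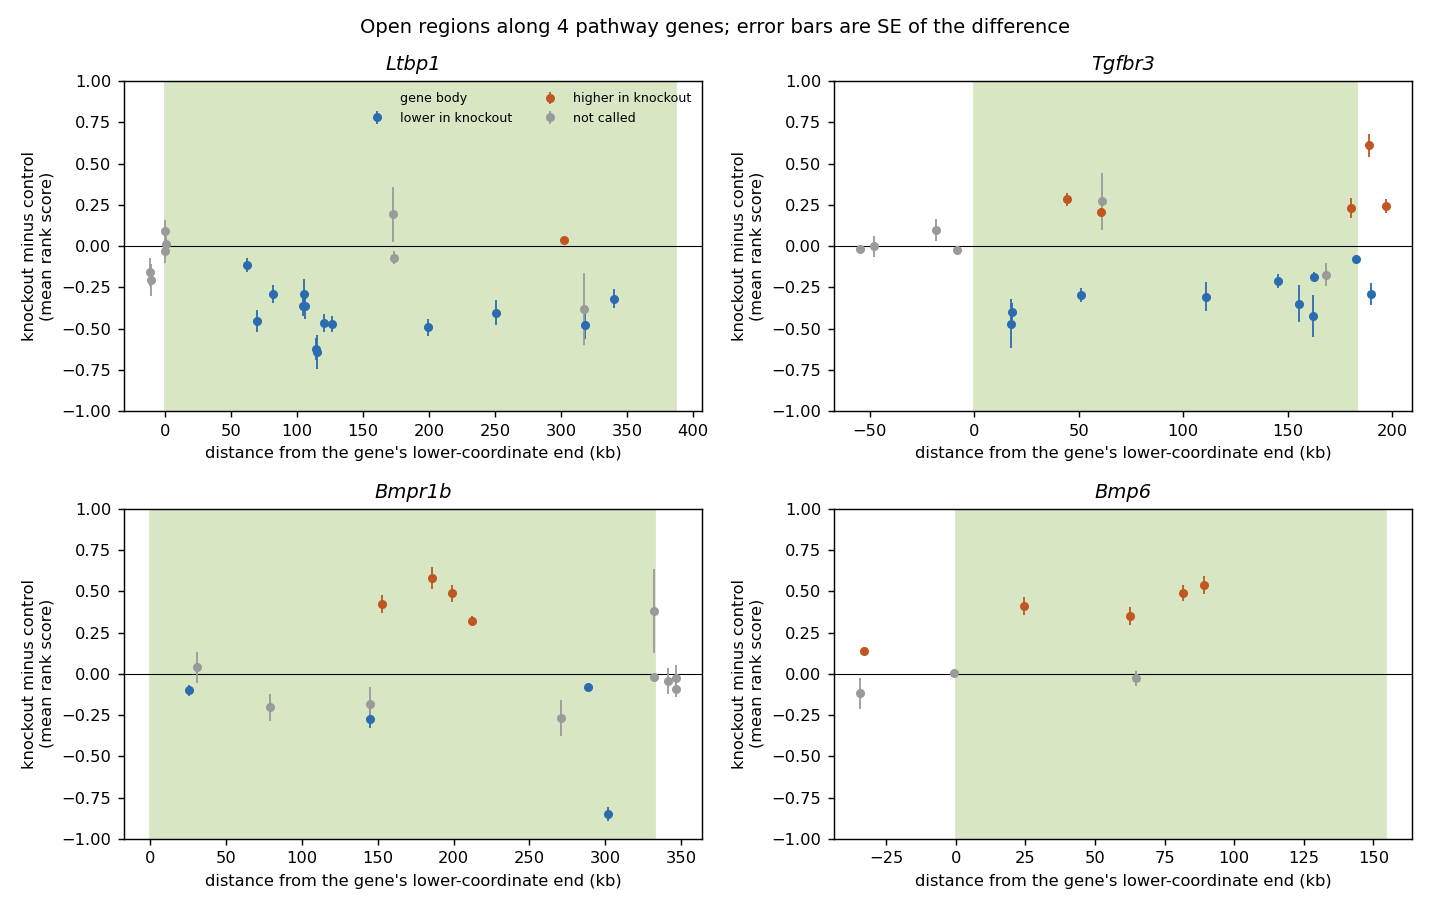
Knockout minus control in mean rank score (vertical axis, error bars SE of the difference) for each region along Ltbp1, Tgfbr3, Bmpr1b and Bmp6, by distance in kb from the lower-coordinate end of the gene (horizontal axis); shading is the gene body. Ltbp1 has 14 lower and 1 higher regions, Tgfbr3 10 and 5, Bmpr1b 4 and 4, and Bmp6 0 and 5.

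The 6 SMADs that carry the signal had 57 regions. Of these, 15 were called lower (26.3%, against 20.8% of all regions) and 2 higher (3.51%, against 17.0%). Of the BMP-activated SMADs, Smad1 had 6 lower and 0 higher of 12, Smad5 1 and 1 of 5, and Smad9 1 and 0 of 4. Of the TGF-beta-activated SMADs, Smad2 had 2 and 0 of 14 and Smad3 3 and 0 of 14, and Smad4, the partner of both branches, had 2 and 1 of 8. Centred scores gave 10 lower and 6 higher of 57 for the group, against 17.2% and 20.3% over all regions. Ranking by fold enrichment gave 8 and 4 of 58, against 16.3% and 15.5%. Leaving out knockout replicate 5 gave 13 and 6 of 57, against 19% and 17.1% over all regions. Leaving out knockout replicate 4 gave 11 and 4, against 18.9% and 15.9%.

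Both higher regions of this group had a peak in every knockout and in at most 1 control. Inside Smad5, chr13:56730591-56730990 scored 0.484, 0.457, 0.518, 0.506 and 0.504 in knockouts, against 0 in each control (difference 0.494 ± 0.0452 SE, limma adjusted p = 1.45e-06). At 4756 bp from Smad4, chr18:73708347-73708746 scored 0.667, 0.728, 0.641, 0.606 and 0.638 in knockouts, against a median of 0 and a highest of 0.225, in replicate 1, in controls (difference 0.618 ± 0.0575 SE, limma adjusted p = 1.67e-06).

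Lower regions of this group included some without a peak in most or all shortened knockout lists and others with graded falls. Near Smad5, chr13:56682394-56682793, outside the gene body, had no peak in any knockout, against 0.403 to 0.523 in controls (limma adjusted p = 3.55e-06). Inside Smad3, chr9:63718758-63719157 had a peak in knockout replicate 4 alone, at 0.165, against 0.365 to 0.651 with a median of 0.514 in controls (limma adjusted p = 3.66e-05). A region 99307 bp from Smad1 (chr8:79498535-79498934) was graded, with 0.595, 0.636, 0.347, 0.556 and 0.539 in knockouts, against 0.744 to 0.876 with a median of 0.824 in controls (limma adjusted p = 0.000187). The Smad1 start site was alike on average, with 0.774 in knockouts and 0.775 in controls (limma adjusted p = 0.983).

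The 7 genes of inhibitory SMADs and other brakes had 75 regions. Of these, 16 were called lower (21.3%, near the 20.8% of all regions) and 9 higher (12%, against 17.0%). The inhibitory Smad6 had 2 lower and 0 higher of 20, and Smad7 3 and 1 of 13. Smad6 thus had 10.0% of its regions lower, against a median of 25.0% over the 436 genes with at least 20 regions. The ubiquitin ligases that degrade receptors and SMADs had 3 and 2 of 11 for Smurf1 and 1 and 1 of 5 for Smurf2. The nuclear co-repressors had 0 and 1 of 6 for Ski, 4 and 3 of 10 for Skil and 3 and 1 of 10 for Tgif1. Leaving out control replicate 3 gave 5 higher calls in place of 9. Inside Smurf1, chr5:144914446-144914845 scored 0.551, 0.586, 0.522, 0.544 and 0.417 in knockouts, against a median of 0 and a highest of 0.0937 in controls (difference 0.508 ± 0.0512 SE, limma adjusted p = 3.56e-06).

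The 4 Id genes had 27 regions. Of these, 6 were called lower (22.2%, near the 20.8% of all regions) and 7 higher (25.9%, against 17.0%). The order of these counts depended on scaling, with 8 lower and 4 higher of 31 in the lists as deposited. Over all regions that setting gave 24.9% lower and 12% higher. Leaving out knockout replicate 3 or control replicate 3, 4 or 5 gave 4 higher calls. Id1 had 1 lower and 2 higher of 5, Id2 4 and 1 of 11, Id3 0 and 4 of 7, and Id4 1 and 0 of 4. The Id3 count fell to 2 higher regions without knockout replicate 3 or 5 or any of the 6 controls, while its promoter region was called in every alternative.

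The smallest p of this group belonged to a graded fall 85526 bp from Id2 (chr12:25181418-25181817), with 0.806, 0.818, 0.831, 0.811 and 0.777 in knockouts, against 0.888 to 0.938 with a median of 0.922 in controls (difference −0.108 ± 0.0135 SE, limma adjusted p = 2.57e-05). The region was open in all 11 libraries and the groups did not overlap. Near Id1, chr2:152741336-152741735 was lower, with 0.250, 0.211, 0.359, 0.244 and 0.249 in knockouts, against 0.571 to 0.736 with a median of 0.622 in controls (limma adjusted p = 3.48e-05). On the other side of Id1, chr2:152725185-152725584 was higher, with 0.568, 0.663, 0.612, 0.550 and 0.682 in knockouts, against 0.189 to 0.503 with a median of 0.368 in controls (limma adjusted p = 0.00479).

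The 8 secreted and membrane modulators had 46 regions. Of these, 11 were called lower (23.9%, against 20.8% of all regions) and 9 higher (19.6%, against 17.0%). Counts were 10 and 10 of 46 with centred scores, against 17.2% and 20.3% over all regions. With ranking by fold enrichment they were 9 and 10 of 45, against 16.3% and 15.5%. Among BMP antagonists, Nog had 0 lower and 1 higher of 6, Chrd 2 and 0 of 3, and Grem1 0 and 0 of 1. Bmp1, a metalloproteinase that cleaves Chordin, had 0 and 2 of 5. Fst, which binds activins, had 1 and 3 of 7, Fstl1, a secreted glycoprotein that antagonises BMP4 in the mouse lung, 5 and 3 of 14, Bambi, a pseudoreceptor, 3 and 0 of 6, and Inhba, the activin A subunit, 0 and 0 of 4.

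Fstl1 showed opposite changes close together. A region 24035 bp from the gene (chr16:37752820-37753219) scored 0, 0.212, 0, 0.280 and 0.273 in knockouts, against 0.563 to 0.813 with a median of 0.689 in controls (difference −0.539 ± 0.0686 SE, limma adjusted p = 2.94e-05). The next called region, 19607 bp from the gene (chr16:37757248-37757647), scored 0.480, 0.693, 0.541, 0.515 and 0.604 in knockouts, against 0 in each control (difference 0.567 ± 0.0524 SE, limma adjusted p = 1.58e-06). Inside the gene body, chr16:37809219-37809618 had peaks in all 11 libraries and was lower, with 0.566, 0.539, 0.623, 0.475 and 0.468 in knockouts, against 0.851 to 0.930 with a median of 0.887 in controls (difference −0.353 ± 0.0297 SE, limma adjusted p = 6.80e-07). None of these 3 regions had groups that overlapped.

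At 464 bp from the Bmp1 gene end, chr14:70473891-70474290 scored 0.515, 0.637, 0.591, 0.526 and 0.570 in knockouts, against a median of 0 and a highest of 0.0305 in controls (difference 0.563 ± 0.0475 SE, limma adjusted p = 7.16e-07). Near Chrd, chr16:20829656-20830055 was lower, with 0.299, 0, 0, 0.359 and 0.253 in knockouts, against 0.630 to 0.756 with a median of 0.696 in controls (limma adjusted p = 5.80e-05). Near Nog, chr11:89265061-89265460 was higher, with 0.592, 0.578, 0.582, 0.630 and 0.565 in knockouts, against 0.227 to 0.427 with a median of 0.338 in controls (limma adjusted p = 0.000631). Near Bambi, chr18:3557415-3557814 had a peak in knockout replicate 5 alone, at 0.257, against 0.450 to 0.658 with a median of 0.478 in controls (limma adjusted p = 8.27e-05).

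**Figure D5:**
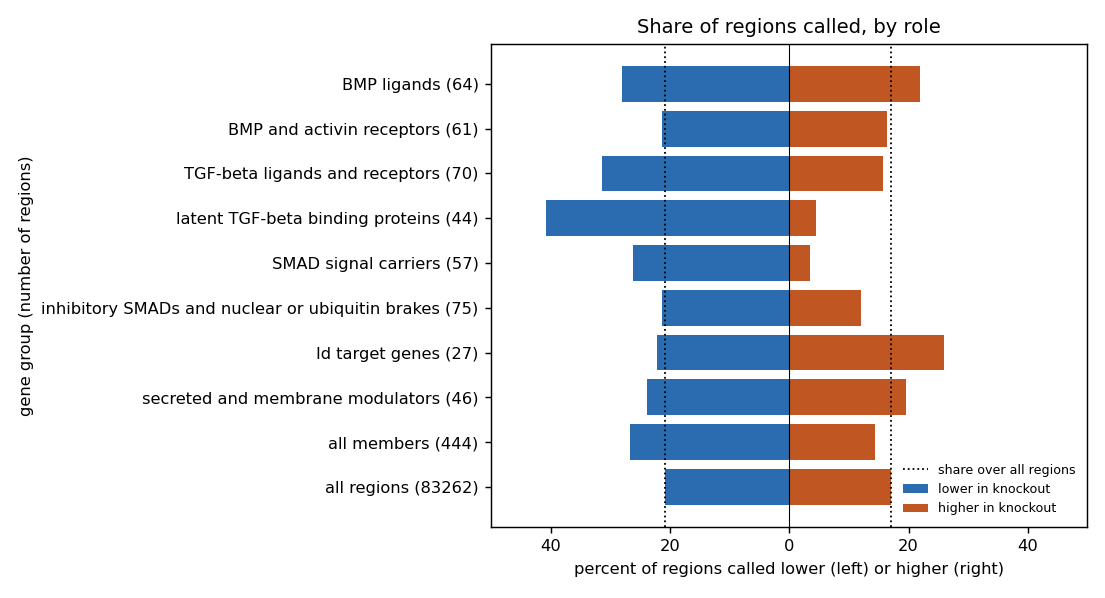
Percent of regions called lower (left of 0) and higher (right of 0) in knockouts for each role group, with the number of regions in brackets, for all 48 genes and for all regions; dotted lines mark the shares over all regions, 20.8% and 17.0%. The latent TGF-beta binding proteins extend farthest to the left, at 40.9%, and the SMAD signal carriers least to the right, at 3.51%.

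A further list of 60 genes of these pathways, chosen for their role and not among the 48, was read in the same way. Of these, 56 had a region, 379 regions in all. Lower calls numbered 96 (25.3%, against 20.8% of all regions) and higher calls 53 (14.0%, against 17.0%). Lower regions only were found for 11 genes, higher only for 10, both for 21 and none called for 14. The most called regions belonged to Nedd4l, a ubiquitin ligase of SMADs, with 10 lower and 5 higher of 43, and Crim1, a membrane protein that binds BMPs, with 5 and 4 of 19. Genes with 8 called regions included Bmper, a BMP-binding secreted protein, with 6 lower and 2 higher of 15, Itgav, an integrin chain that takes part in TGF-beta activation, with 7 and 1 of 14, and Fbn2, a microfibril protein, with 2 and 6 of 13.

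Libraries differed in the length of their lists, 72935 to 85704 peaks in knockouts and 79525 to 112297 in controls, and read depth is unknown. Peaks near the 48 genes numbered 433 ± 34.9 in knockouts and 523 ± 63.7 in controls, 0.529% and 0.549% of all peaks (SD, n = 5 and 6). At the length used, the last peak kept had a −log10 p of 2.00 to 14.0 in knockouts and 6.59 to 35.65 in controls, so some control peaks that were dropped had higher values than knockout peaks that were kept. Promoter peaks were checked against cell type markers by summed rank score. Of 10 lung epithelial genes, 7 had a promoter region, with sums of 3.49 to 4.39 in knockouts and 4.12 to 4.82 in controls. A peak was present in all 11 libraries for 6 of them. Epcam itself was at 0 in knockout replicate 4, and at 0.00687 and 0.138 in control replicates 1 and 2. Sftpb scored 0.471 to 0.673 in knockouts and 0.751 to 0.841 in controls, without overlap. The groups overlapped for Epcam, Nkx2-1, Krt8, Krt18, Cldn18 and Foxa2. Of 10 endothelial genes, 6 had a promoter region, with sums of 1.00 to 1.29 in knockouts and 1.41 to 2.36 in controls, which did not overlap. Among these, Tie1 and Emcn were at 0 throughout, and Tek was at 0 in each knockout and at 0.347 to 0.626 in controls. Cldn5 had a peak in control replicates 4 and 6 alone, at 0.573 and 0.460. The groups overlapped for Kdr, with 0.275 to 0.588 in knockouts and 0.308 to 0.593 in controls. They also overlapped for Erg, with 0.694 to 0.784 in knockouts and 0.753 to 0.877 in controls. Of 10 mesenchymal genes, 7 had a promoter region, with sums of 0.832 to 1.38 in knockouts and 1.02 to 1.36 in controls. Pdgfra, Col3a1, Tcf21, Tbx4 and Acta2 were at 0 in all libraries. Col1a2 (0.478 to 0.774) and Twist1 (0.327 to 0.679) had a peak in all 11 libraries. Of 10 blood cell genes, 7 had a promoter region, with sums of 0.940 to 1.36 in knockouts and 0.898 to 1.42 in controls. Ptprc, Fcer1g, Cd53, Laptm5 and Gata1 were at 0. Runx1 had a peak in all 11 libraries, at 0.898 to 0.965. Coro1a ranged from 0 to 0.430 in knockouts and from 0 to 0.519 in controls. Of 5 mesothelial genes, 2 had a promoter region, both at 0. Endothelial sums were thus lower in knockouts, and the range of epithelial sums also lay lower there, with overlap. The part of these marker differences in the results for the pathway genes was not tested.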

How the data were processed

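One peak list per library was used, 5 of knockouts and 6 of controls, grouped by the genotype label. Per the submitters' processing notes, deepTools, DiffBind 3 and MACS2 were used with mm10, with no role stated for each. How reads were aligned and peaks filtered is not given in the sources used here. File layout was read from the values. The authors' score column has no stated unit and was left aside. Each deposited peak also carries a fold enrichment (a ratio), a −log10 p and a −log10 q. These were made by the authors within each library and vary with its unknown read depth, so ranks within a library were compared in their place.

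Peaks were ranked by −log10 p in lists of 72935. Windows of 400 bp were centred on summits, the best-ranked of overlapping windows was kept, and a peak overlapping a window by at least 100 bp counted as present. Regions found in 3 or more libraries were assigned to the nearest of 21896 protein-coding gene bodies in RefSeq's GRCm38.p6 table, within 100 kb; all 48 symbols matched. Genotype was the only term in a limma fit (version 3.58.1, R 4.3.3, with trend and robust settings) of rank scores, and presence was compared with Fisher's exact test, two-sided, each with Benjamini-Hochberg adjustment at 0.05 over all testable regions. This fit was also run on simulated scores with known shifts, added only to regions of middle score. That setting does not cover regions without a peak in a whole group, and its outcome is not given here. Tables and plots were made in Python 3.11.15 with pandas 2.3.3, numpy 2.4.6 and matplotlib 3.10.9.

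The 48 genes, the lists, the tests and the naming rule were chosen with earlier results of these data known. The rule took the 8 greatest called falls and rises (at most 3 of a gene per direction), the smallest p of each role and, by range, the best gene-end region of each gene; called promoters and the example regions were added after values were seen. Alternatives covered list length, q threshold, overlap, ranking by fold, merged peaks, regions kept, centring, fit, gene distance, a replicate block and each library left out in turn. The result of 1 gene of the further pathway list is not reported here.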

Additional observations from a re-analysis of the deposited data

Results flagged for a closer look

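Among the values per library of the named regions, 9 of 44 groups tested held a library that stood apart from the rest of its group by Dixon's criterion. Chance flags about 1 in 20 groups of continuous values, a rate that does not apply to the 6 flags where every other library of the group was at 0, since any peak there is flagged by construction. No cause was tested. In knockouts, replicate 2 was at 0.155 in the Bmpr1b region 142138807, and replicate 4 at 0.0679 in the Tgfbr2 region 116160892, where the others were at 0. Control replicate 1 stood apart at 0.832 in the Bmp4 region 46364131, where the others reached 0.784. It also held the only control peak at 0.406 in the Bmp2 region 133606364, at 0.225 in the Smad4 region 73708347 and at 0.0937 in the Smurf1 region 144914446. Control replicate 2 held the only control peak, at 0.0305, in the Bmp1 region 70473891. Control replicate 3 was at 0.126 in the Ltbp1 region 75120041, where the others were at 0.709 to 0.784, and at 0 in the Bmp2 region 133460826, where the others were at 0.291 to 0.382.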

How the results depend on the processing

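Lower calls near the 48 genes outnumbered higher calls under every alternative run, and no named region reversed. Over all regions, lower calls also outnumbered higher calls in each alternative except centred scores, where they were 45.9% of calls. Lists shortened to 50% of the shortest gave 64 lower and 33 higher calls (66% lower, against 52.1% of calls over the genome). By Fisher's test they gave 24 regions with a peak in more controls and 15 with a peak in more knockouts. No share over all regions is at hand for these Fisher counts. Regions inside or within 1 kb of the gene body gave 72 and 33 calls (68.6% lower, against 57.1%). These alternatives hold fewer regions by construction. With a library left out, limma gave 107 to 119 lower and 52 to 65 higher calls of 444. Over all regions the shares with a library left out were 18.5% to 20.9% lower and 15.5% to 17.1% higher. Lower calls were then 63.1% to 68.1% of calls near these genes and 52.6% to 57% over the genome. Fisher's test, which then has fewer libraries, gave 17 to 21 regions for more controls and 12 to 16 for more knockouts. Shares over all regions are not at hand for these counts either. Correlations of deviations ran from −0.0234 to 0.139 for same-numbered libraries, highest for number 5, and from −0.084 to 0.0809 for different numbers. Whether replicate numbers pair the libraries is not settled by these values. The fit with a replicate block gave 101 lower and 49 higher calls (67.3% lower, against 54.9% over the genome). Of 24 named regions, 17 kept their call in all 22 settings run for them. In the lists shortened to 50% the calls at Tgfbr2 116160892, Bmp4 46357735, Fstl1 37757248, Smad5 56730591 and Smurf1 144914446 were lost, and the call at Ltbp1 75120041 was lost in the lists as deposited and with the q threshold; the cause was not tested. The Tgfbr2 promoter region lost its call in 8 settings (limma adjusted p from 0.00790 to 0.318 over all 22), the block among them. Without read counts, weak and absent peaks cannot be told apart.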
